A study of Mus musculus with 6 samples.

Results

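The family of microRNAs formed by miR-148a, miR-148b and miR-152 was examined in mouse fetal liver by small RNA sequencing. Its members were taken by name from the deposited abundance table. They are the 3p and 5p strands of 3 hairpins, mmu-miR-148a-3p, mmu-miR-148a-5p, mmu-miR-148b-3p, mmu-miR-148b-5p, mmu-miR-152-3p and mmu-miR-152-5p (written without the species prefix from here on), 6 of the 1626 mature miRNAs listed. All 6 were present and all 6 passed the filter on low counts, as did 876 miRNAs in all. The libraries came from C57BL/6J fetal liver, 3 of genotype WT (numbered 1 to 3) and 3 of genotype miR-144/451-/- (KO, numbered 4 to 6), in which both copies of the erythroid miR-144/451 locus are deleted. Each library was made from total RNA of whole fetal liver cells, so its miRNAs can come from erythroid precursors, hepatoblasts and any other cells in the sample. The labels do not give the embryonic age, or say whether replicates came from different embryos. The p-values therefore cover only the spread between the libraries at hand, part of which may be technical. In bulk samples of this kind, fewer cells of a type and less of a miRNA per cell cannot be told apart. The question put to the data was whether loss of the locus went with a change in these miRNAs, and how liver-rich miR-148a compared with its relatives.

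A microRNA hairpin is cut by Drosha and Dicer into a pair of strands, of which the guide is loaded into Argonaute and the other is mostly degraded. The guide finds messenger RNAs through its seed, here bases 2 to 8 counted from the 5′ end, so miRNAs with a common seed can act on the same messages. In this family the 3p strand is the usual guide. miR-148a is abundant in liver, and the family as a whole is known for targeting Dnmt1, the maintenance DNA methyltransferase.

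The 3 guide strands are shown because their seeds, in capitals, are the same (5′ to 3′, RefSeq, GRCm38.p6).
miR-148a-3p: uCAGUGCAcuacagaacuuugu
miR-148b-3p: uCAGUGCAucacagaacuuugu
miR-152-3p: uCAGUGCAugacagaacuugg
Among 1679 RefSeq mouse mature miRNA names, these 3 were the only ones with CAGUGCA at bases 2 to 8. Counted from base 1 at the 5′ end, miR-148b-3p differs from miR-148a-3p by C9U and U10C, just outside the seed. miR-152-3p differs from miR-148a-3p by C9U, U10G and U20G and ends 1 base earlier, and it differs from miR-148b-3p by C10G and U20G. No other of these RefSeq miRNAs of similar length came closer to a guide strand than 8 mismatches. How the authors assigned reads that match several miRNAs is not given in the sources used here. No other listed miRNA had counts within 5% of a member's in every library, so none was a near copy of a member. Partial sharing of reads between members would pass this check and was not tested. Levels, shares and ratios of the members therefore rest on the authors' assignment of reads.

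The opposite strands are shown because they resemble each other less.
miR-148a-5p: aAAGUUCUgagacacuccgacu
miR-148b-5p: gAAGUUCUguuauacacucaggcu
miR-152-5p: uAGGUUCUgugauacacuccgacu
The seed AAGUUCU is common to miR-148a-5p and miR-148b-5p, while miR-152-5p has AGGUUCU. Aligned without gaps from base 1, the first pair has 13 of 22 bases the same, against 20 of 22 for the 3p strands of the same hairpins. miR-148a-5p and miR-152-5p have 12 of 22 the same, and miR-148b-5p and miR-152-5p 19 of 24. miR-148a-5p has 22 bases and the others 24, so ungapped counts with it can understate likeness. It and miR-152-5p end alike at the 3′ end.

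The hairpins lie on 3 chromosomes and are shown with both mature strands in capitals.
Mir148a: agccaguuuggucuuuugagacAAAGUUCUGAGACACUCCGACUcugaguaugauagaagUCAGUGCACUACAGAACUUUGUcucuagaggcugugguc
Mir148b: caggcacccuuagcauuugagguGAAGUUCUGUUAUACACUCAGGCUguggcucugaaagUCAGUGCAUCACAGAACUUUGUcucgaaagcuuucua
Mir152: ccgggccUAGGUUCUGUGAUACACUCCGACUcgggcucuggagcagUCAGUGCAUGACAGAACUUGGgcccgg
In GRCm38, Mir148a lies on the minus strand of chromosome 6 (51269812 to 51269910), in no GENCODE M21 gene other than its own. Mir148b (chromosome 15, 103285125 to 103285221, plus strand) lies in an intron of Copz1, and Mir152 (chromosome 11, 96850393 to 96850465, plus strand) in an intron of Copz2, both on the strand of the host. Copz1 and Copz2 encode paralogous zeta subunits of the COPI vesicle coat. Mir152 is on the chromosome of the deleted locus, 18.8 Mb beyond Mir144.

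Libraries held 16243894 to 27089133 miRNA counts. The deleted locus took 17.57% to 24.09% of counts in WT and 0.02144% to 0.02315% in KO, so the level of the locus matched the genotype label in all 6 libraries. Levels are given as counts per 1000000 after TMM scaling (CPM), which sets the typical miRNA equal between libraries. Without that scaling factor the median log2 fold of all miRNAs outside the locus was 0.34, since the lost locus leaves more of each KO library to the rest.

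miR-148a-3p was the most abundant member in every library, and the family spanned a wide range of levels. miR-148a-3p ranked 49 of 876 in mean CPM, miR-148b-3p 70, miR-152-3p 97, miR-148b-5p 198, miR-148a-5p 274 and miR-152-5p 564. Each member lay above the next in all 6 libraries, except that miR-148b-3p lay above miR-152-3p in 5 of 6 and below it in WT library 3. In WT the values of miR-148b-3p and miR-152-3p overlapped (1451 to 2093 and 819.4 to 1785 CPM), and in KO those of miR-148a-3p and miR-148b-3p did (2975 to 4273 and 2443 to 2999 CPM). miR-148a-3p was 1.09 to 3.56 times miR-148b-3p and 2.9 to 4.62 times miR-152-3p, depending on the library. Each value compares reads of whole mature strands of 21 to 24 bases. How well each strand is ligated and amplified was not measured, so ratios between different miRNAs are read ratios.

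miR-148a-3p, the liver-rich guide, had overlapping levels in WT and KO. The WT libraries held 3683, 4075 and 5168 CPM (libraries 1 to 3) and the KO libraries 2975, 3571 and 4273 CPM (libraries 4 to 6). The groups overlapped, and WT library 3 and KO library 6 were the highest of their genotypes. The means were 4309 ± 769.6 and 3606 ± 649.6 CPM (SD, n = 3 each), a log2 fold of KO over WT of -0.26 (95% interval -0.71 to 0.20; edgeR quasi-likelihood, Benjamini-Hochberg adjusted p = 0.647). Its opposite strand miR-148a-5p stood at 48.9, 68.6 and 95.4 CPM in WT and 50.9, 61.5 and 82.2 CPM in KO. The same libraries were highest, and the log2 fold was -0.13 (95% interval -0.86 to 0.60; edgeR adjusted p = 0.965).

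miR-148b, by contrast, had higher values in every KO library than in any WT library on both strands, although neither strand passed the test. miR-148b-3p stood at 2093, 1808 and 1451 CPM in WT and at 2741, 2999 and 2443 CPM in KO. WT library 3 was the lowest of all 6, and the gap between the groups lay between 2093 and 2443 CPM. The means were 1784 ± 322 and 2728 ± 278.1 CPM (SD, n = 3 each), 1.53 times as much in KO, a log2 fold of 0.61 (SE 0.17, 95% interval 0.20 to 1.03; edgeR unadjusted p = 0.0104, adjusted p = 0.234). miR-148b-5p, from the other side of the same hairpin, stood at 130.2, 156.4 and 142.8 CPM in WT and at 225.7, 263.1 and 195.8 CPM in KO. Its means of 143.1 ± 13.11 and 228.2 ± 33.71 CPM (SD, n = 3 each) gave a log2 fold of 0.67 (SE 0.19, 95% interval 0.23 to 1.11; edgeR unadjusted p = 0.00878, adjusted p = 0.234). Both strands come from 1 precursor, so they are not separate evidence. Among all tested miRNAs, 15.9% had the 3 KO values all above the 3 WT values and 9.59% had an unadjusted p under 0.05 with a higher level in KO, so the pattern of miR-148b was shared by many miRNAs.

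miR-152 had overlapping levels in WT and KO and differed much between libraries. miR-152-3p, the guide, stood at 819.4, 881.3 and 1785 CPM in WT and at 789.1, 944.6 and 1306 CPM in KO. WT library 3 had more than any other library, and the groups overlapped. Its means were 1162 ± 540.5 and 1013 ± 265.2 CPM (SD, n = 3 each), a log2 fold of -0.20 (95% interval -1.02 to 0.63; edgeR adjusted p = 0.902). Without WT library 3 the log2 fold was 0.17 (edgeR adjusted p = 0.689), so that library set its direction. miR-152-5p was barely present, with 29, 85 and 123 reads in WT and 47, 60 and 87 in KO. Its log2 fold was -0.32 (95% interval -1.44 to 0.80; edgeR adjusted p = 0.853) and turned to 0.17 without WT library 3.

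**Figure D1:**
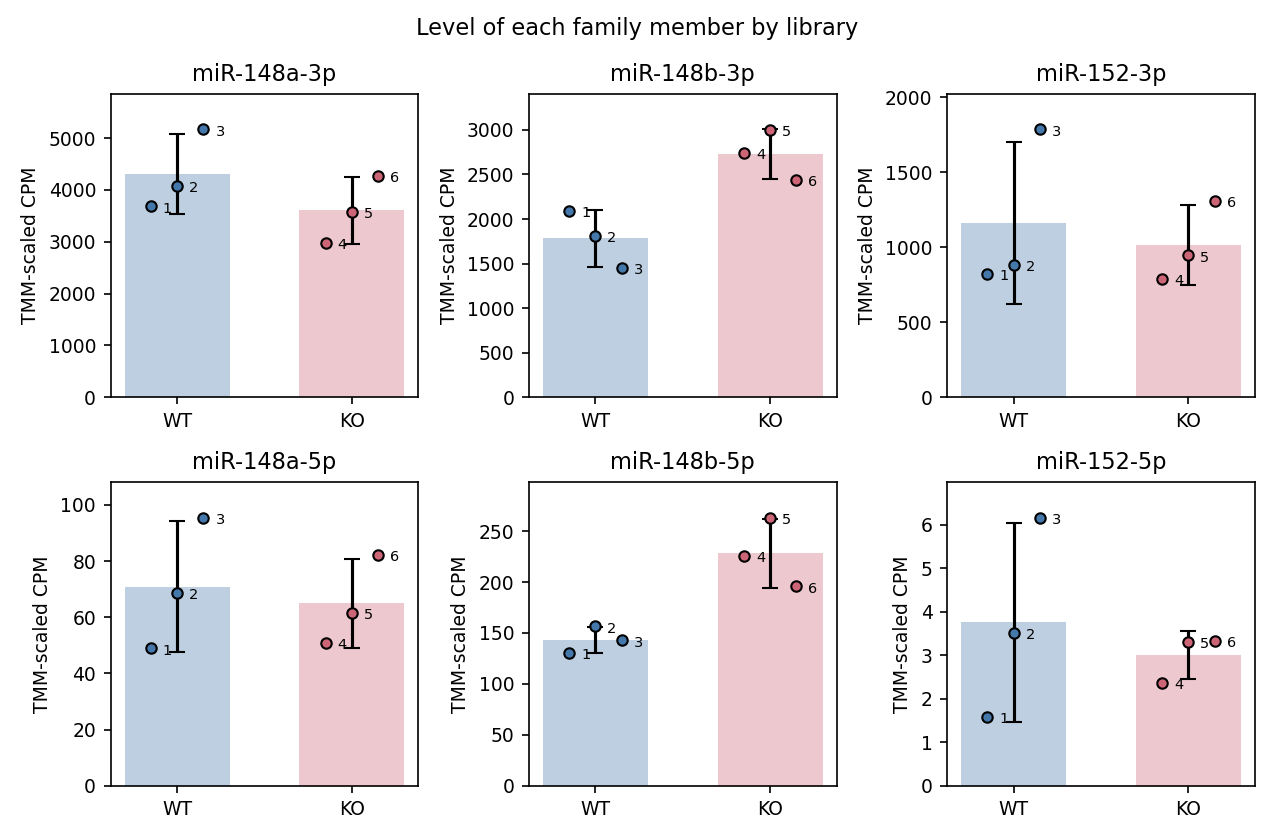
TMM-scaled CPM of the 6 members in each library (points, labelled with the library number), with the mean (bars, linear axes from 0) and SD (error bars), n = 3 per genotype. The KO points lie above all WT points for miR-148b-3p and miR-148b-5p only, and WT library 3 is the highest WT library for miR-148a-3p and miR-152-3p.

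In all, 0 of the 6 members passed edgeR's test at an adjusted p under 0.05, where 0.799% of all tested miRNAs did. An edgeR unadjusted p under 0.05 was reached by 2 of 6, the strands of 1 hairpin, miR-148b. Both were higher in KO, and 9.59% of all tested miRNAs had such a p with a higher level in KO. DESeq2 also called 0 of 6. It gave adjusted p of 0.518 and 0.328 to miR-148b-3p and miR-148b-5p, and called 0.668% of miRNAs as higher in KO. limma-voom also called 0 of 6, with an adjusted p of 0.207 for both strands, against 0.571% called as higher. The intervals of miR-148a-3p and miR-152-3p leave room for differences in either direction, so equal levels were not shown.

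The choice of scale changed the calls. With no scaling factor, where each value is a share of the whole library, both miR-148b strands passed: miR-148b-3p took 0.158% ± 0.0291 of counts in WT and 0.31% ± 0.0386 in KO (SD, n = 3 each), 1.97 times as much, with a log2 fold of 0.98 (edgeR adjusted p = 0.0315). miR-148b-5p took 0.0126% ± 0.00123 and 0.0259% ± 0.00408 (SD, n = 3 each), with a log2 fold of 1.03 (edgeR adjusted p = 0.0315). On that scale 6.62% of all tested miRNAs were called as higher, and relative to the median of 0.34 the miR-148b folds were 0.64 and 0.70. The log2 folds of miR-148a-3p and miR-152-3p were 0.10 and 0.16 on that scale, both below the median.

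**Figure D2:**
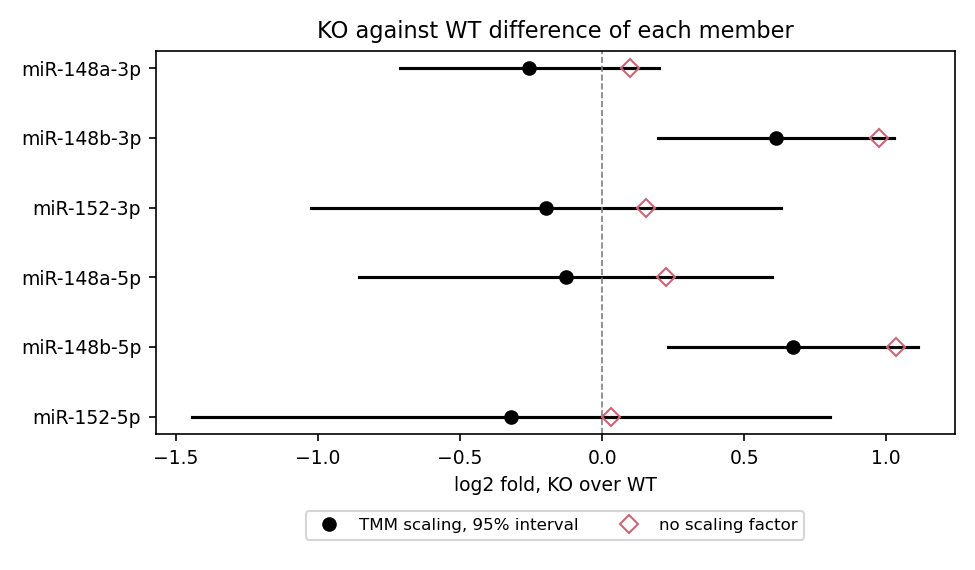
Log2 fold of KO over WT for each member, with TMM scaling (filled circles, with approximate 95% intervals from edgeR as lines) and with no scaling factor (open diamonds); the dashed line marks no difference. The intervals of the miR-148b strands start at 0.20 and 0.23, while those of the other 4 members span 0, and the diamonds sit to the right of the circles for all 6 members.

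The 3 guide strands that carry the common seed were also summed, as a description with no test. They stood together at 6596, 6764 and 8403 CPM in WT and at 6505, 7515 and 8022 CPM in KO, with means of 7254 ± 998.7 and 7347 ± 772.3 CPM (SD, n = 3 each). miR-148a-3p made up 55.8%, 60.2% and 61.5% of their counts in WT and 45.7%, 47.5% and 53.3% in KO. miR-148b-3p made up 31.7%, 26.7% and 17.3% in WT and 42.1%, 39.9% and 30.5% in KO. The miR-148a-3p shares were lower in every KO library than in any WT library, whereas the miR-148b-3p shares overlapped, at 31.7% in WT library 1 and 30.5% in KO library 6. The shares are parts of a whole, so a lower share of miR-148a-3p is not separate from the higher level of miR-148b-3p. miR-152-3p made up 15.6% ± 4.92 in WT and 13.7% ± 2.28 in KO (SD, n = 3 each). The 95% Wilson interval of any of these shares was at most 0.56 percentage points wide, which covers counting error only.

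**Figure D3:**
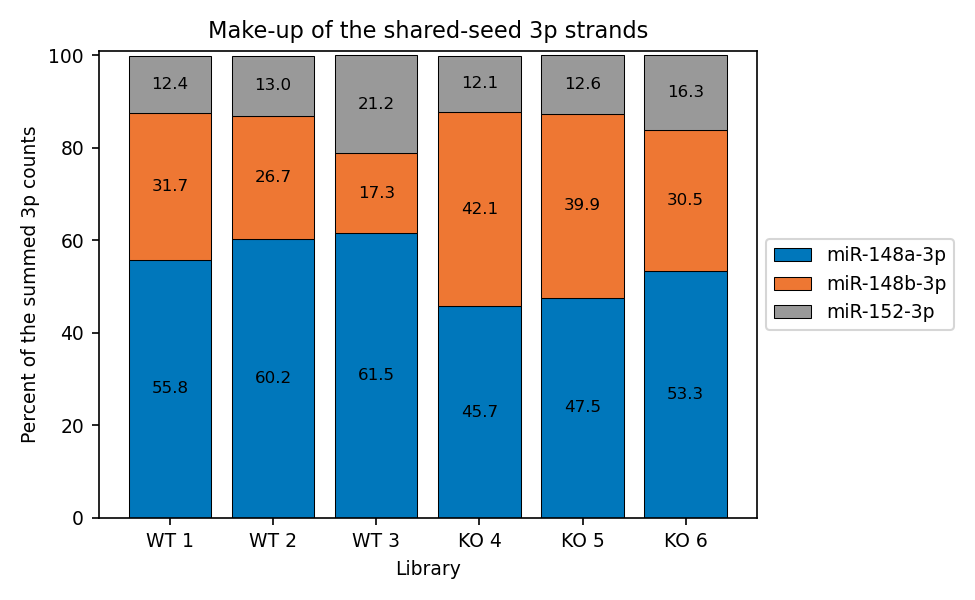
Percent of the summed counts of the 3 guide strands taken by each, per library (stacked bars, values printed inside). miR-148a-3p takes 55.8% to 61.5% in WT and 45.7% to 53.3% in KO, and WT library 3 stands out with 21.2% for miR-152-3p.

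Ratios within a library need no scaling factor, and 3 were compared. The ratio of miR-148a-3p to miR-148b-3p was 1.76, 2.25 and 3.56 in WT and 1.09, 1.19 and 1.75 in KO. The groups did not overlap, but the nearest libraries were almost level. How often ratios of other miRNAs separate the genotypes was not counted. The mean log2 ratio was 1.27 in WT and 0.39 in KO, a difference of -0.88 (exact two-sided permutation p = 0.1, unadjusted, the smallest that 3 against 3 libraries can give). miR-148a-3p to miR-152-3p was 4.49, 4.62 and 2.9 in WT and 3.77, 3.78 and 3.27 in KO, with overlapping groups (log2 difference -0.12, exact two-sided permutation p = 0.6). With 1 library left out this difference ran from -0.0033 (without WT library 2) to -0.34 (without WT library 3), so its size rests on single libraries. miR-148b-3p to miR-152-3p was 2.55, 2.05 and 0.813 in WT and 3.47, 3.17 and 1.87 in KO, also overlapping (log2 difference 0.76, exact two-sided permutation p = 0.3). With 1 library left out this last difference ran from 0.26 (without WT library 3) to 1.09 (without WT library 1). Over both strands of all hairpins, the family took 0.659% ± 0.0849 of library counts in WT and 0.863% ± 0.0366 in KO (SD, n = 3 each), or 0.83% ± 0.102 and 0.864% ± 0.0367 when the deleted locus was left out of the totals.

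Within each genotype, miR-148a-3p and miR-152-3p were highest in the library with the most hepatocyte miRNA, and miR-148b-3p was lowest there. How many other miRNAs were highest or lowest in the same libraries was not counted. miR-122-5p, the main miRNA of hepatocytes, stood at 29330, 50130 and 117800 CPM in WT and 37310, 42830 and 92270 CPM in KO, so that WT library 3 held 4.02 times as much as WT library 1 and KO library 6 held 2.47 times as much as KO library 4. Between the same libraries miR-152-3p was 2.18 and 1.66 times as high and miR-148a-3p 1.4 and 1.44 times. miR-148b-3p was 0.693 and 0.891 times as high, and was lowest in WT library 3 and KO library 6 within their genotypes. Its opposite strand miR-148b-5p was 1.1 and 0.867 times as high, with its lowest WT value in library 1. Of 11 listed hepatocyte miRNAs, 11 were in the table, 8 were tested and 0 were at 0 in all libraries. Their summed level ran from 34410 to 133100 CPM in WT and from 42710 to 103400 CPM in KO, and 0 passed edgeR's test (0 at an unadjusted p under 0.05, and 0 by DESeq2 or limma-voom). The log2 fold was positive for 1 of the 8 and negative for 7 (median -0.20). The median over all tested miRNAs was -0.01.

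**Figure D4:**
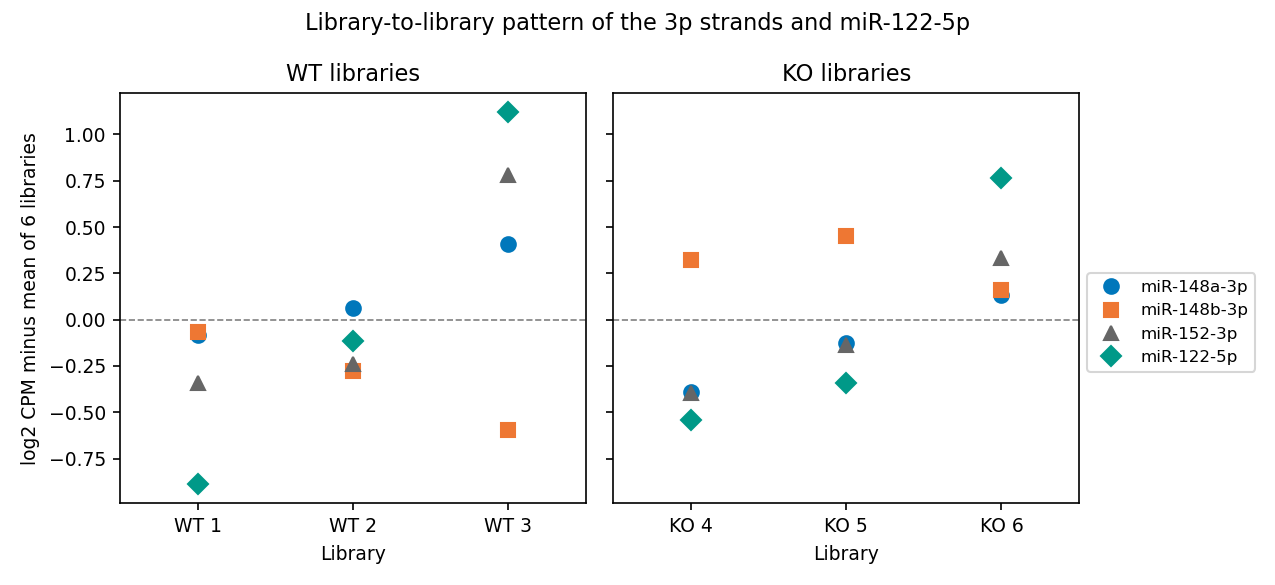
Log2 CPM of the 3 guide strands and of miR-122-5p, each minus its mean over the 6 libraries (vertical axis), for WT libraries on the left and KO libraries on the right. In WT library 3, miR-122-5p stands at 1.12, miR-152-3p at 0.78 and miR-148a-3p at 0.41, while miR-148b-3p stands at -0.59.

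With the log2 CPM of miR-122-5p as a covariate in the fit, the log2 fold of miR-148b-3p stayed at 0.61 and passed (edgeR adjusted p = 0.0185), where 1.71% of all tested miRNAs were called as higher. miR-148b-5p did not pass there (log2 fold 0.67, edgeR adjusted p = 0.0857). miR-148a-3p and miR-152-3p stood at -0.23 and -0.10 (edgeR adjusted p = 0.225 and 0.685). The part that hepatocyte content has in the level of each member was not tested beyond this fit, which leaves few degrees of freedom.

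Marker miRNAs of other cells also moved between libraries. The erythroid miRNAs outside the deleted locus, of which 2 of 4 were in the table, ran from 44000 to 82760 CPM in WT and from 49880 to 69930 CPM in KO. Nearly all of this sum was miR-486a-5p (82230 of 82760 CPM in WT library 1). The erythroid and the pan-haematopoietic sums were both lowest in WT library 3 and KO library 6, as was miR-148b-3p within each genotype. Mesenchymal miRNAs (9 of 10 tested) summed to 2323 to 3205 CPM in WT and 2085 to 3019 CPM in KO, and the 2 endothelial miRNAs to 7323 to 10520 and 7735 to 11050 CPM, both highest in WT library 3 and KO library 6. The 2 myeloid miRNAs summed to 15700 to 20740 and 8883 to 16310 CPM, and the 2 pan-haematopoietic miRNAs to 28590 to 34110 and 25850 to 38760 CPM. The myeloid sum was lowest in WT library 3 and KO library 4. None of these markers was at 0 in all libraries, and 0 passed edgeR's test (0 at an unadjusted p under 0.05, and 0 by DESeq2 or limma-voom). Their part in the family's levels was not tested. The muscle miRNAs miR-206-3p and miR-1a-3p, in none of these lists and named after their values were seen, set WT library 1 apart. They stood at 203.8 and 174.2 CPM there, at 10.9 and 8.95 in WT library 2 and at 7.66 and 6.06 in WT library 3. In KO they stood at 41.8 and 37.3 CPM in library 4, 7.35 and 5.41 in library 5 and 6.97 and 5.63 in library 6. The source of these reads was not tested.

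Other miRNAs were ranked by the root mean square difference of their centred log2 CPM over the 6 libraries, among 231 non-members with a mean of at least 100 CPM. Nearest to miR-148a-3p were miR-223-5p (0.084), miR-23b-3p and miR-23a-3p (0.10 each). miR-23b-3p and miR-23a-3p had almost the same level in every library (1041 and 1042 CPM in WT library 1), so they may not be separate signals. Nearest to miR-148b-3p were miR-421-3p (0.071), miR-499-5p (0.093) and miR-301a-3p (0.10), whose log2 folds were 0.50, 0.71 and 0.64 and did not pass the test (edgeR adjusted p = 0.324, 0.234 and 0.143). Nearest to miR-152-3p were miR-673-5p (0.097), miR-127-3p (0.13) and miR-380-3p (0.13), all from the imprinted Dlk1-Dio3 region of chromosome 12. From miR-148a-3p, miR-152-3p lay at 0.24, which would rank 39, and miR-148b-3p at 0.57, which would rank 218. The hepatocyte miR-122-5p was not close to any guide strand. It lay at 0.53 from miR-148a-3p (rank 212), 0.95 from miR-148b-3p (rank 225) and 0.34 from miR-152-3p (rank 75). This order describes 6 libraries that share their scaling factors, and neighbours in it were picked as the nearest of many. It takes in WT and KO libraries together, so the nearest miRNAs have folds close to the member's by construction.

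The strand ratio of each hairpin was tested separately, since it does not depend on how much of the hairpin was made. The 3p strand held 98.11% to 98.69% of the reads of miR-148a, 91.04% to 94.15% of those of miR-148b and 99.6% to 99.81% of those of miR-152. For miR-148a the WT libraries gave 75.4, 59.4 and 54.2 reads of the 3p strand per read of the 5p strand, and the KO libraries 58.4, 58.1 and 52.0. For miR-148b the WT libraries gave 16.1, 11.6 and 10.2 and the KO libraries 12.1, 11.4 and 12.5. For miR-152 the WT libraries gave 517, 250 and 290 and the KO libraries 333, 285 and 392. The genotypes overlapped for all 3 hairpins, which kept their order in all 6 libraries, with the most even strand use in miR-148b. WT library 1 had the highest ratio of all libraries for each of the 3 hairpins, 0.35, 0.40 and 0.60 above their means on the log2 scale, while the median over 263 hairpins was 0.023 above in that library.

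The differences of KO from WT in log2 strand ratio were -0.15 (95% interval -0.55 to 0.24) for miR-148a, -0.04 (-0.47 to 0.39) for miR-148b and -0.0020 (-0.61 to 0.60) for miR-152. By limma's trend method the adjusted p were 0.946, 0.975 and 0.995, and 0% of the 263 hairpins tested were called. At an unadjusted p under 0.05 there were 15 hairpins, 0 of them of the family. Without WT library 1 the difference was 0.15 for miR-148b and 0.30 for miR-152, again without a call.

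**Figure D5:**
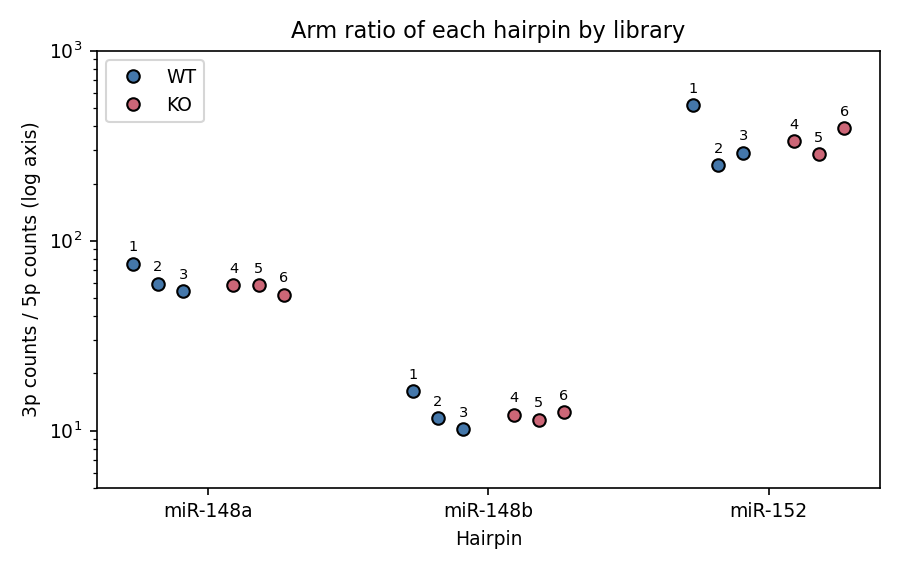
Reads of the 3p strand per read of the 5p strand for the 3 hairpins (log axis), in each WT and KO library (points, labelled with the library number). Ratios sit near 12 for miR-148b, 52.0 to 75.4 for miR-148a and 250 to 517 for miR-152, with WT library 1 the highest for each.

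Other miRNAs known to target messages of DNA methyltransferases, not of Dnmt1 alone, were described from a list. Of 6 miRNAs known to target DNA methyltransferase messages, 5 had positive and 1 a negative log2 fold (median 0.22), and 0 passed edgeR's test (1, miR-185-5p, at an unadjusted p under 0.05, and 0 by DESeq2 or limma-voom). miR-126a-3p and miR-29a-3p, the most abundant of them, stood at 0.03 (SE 0.21) and 0.04 (SE 0.17), and miR-185-5p at 0.42 (SE 0.14; edgeR adjusted p = 0.307). The KO values lay all above the WT values for 3 of the 6 (miR-185-5p, miR-29b-3p and miR-29c-3p) and all below for 1 (miR-342-3p), named after their values were seen; over all tested miRNAs 15.9% lay all above and 5.94% all below. miR-29b-3p stood at 293.8, 295.6 and 269.8 CPM in WT and 379.0, 448.3 and 300.4 CPM in KO. miR-29c-3p was close to it in every library (275.9, 283.8 and 254.7 CPM in WT and 362.0, 432.5 and 292.8 CPM in KO). They may not be separate signals, so the count of 3 may hold 1 signal more than once. miR-185-5p stood at 1401, 1596 and 1364 CPM in WT and 2015, 2084 and 1722 CPM in KO.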

How the data were processed

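Small RNA was sequenced from total RNA of fetal liver cells (NEXTflex small RNA libraries, per the labels' protocols; the series' design text names HITS-CLIP, the sample labels miRNA sequencing). The authors deposited 1 table with raw read counts per mature miRNA and library, and a percent column per library. Each deposited percent equalled the count over the library's total, times 100, to within 5.0e-09. Reads were trimmed with cutadapt, per the submitters' processing notes; the aligner, annotation release and handling of reads matching several miRNAs are not given in the sources used here. Counts were fitted in R 4.3.3 with edgeR 4.0.16 (filterByExpr, TMM, quasi-likelihood F-test, KO against WT, 6 libraries), with Benjamini-Hochberg adjustment over 876 miRNAs and calls at an adjusted p under 0.05. SE is the absolute log2 fold over the square root of F, and intervals use it with the fit's degrees of freedom; both are approximate. DESeq2 1.42.0, limma-voom (limma 3.58.1), other scalings, no filter, a miR-122-5p covariate and each library left out were alternatives. Strand ratios were log2((3p + 1)/(5p + 1)) tested with limma's trend method on 263 hairpins whose arms each averaged 10 counts or more; ratios between members had 1 count added to each. Libraries of a genotype were compared by chi-square per degree of freedom (152 to 2340 over 6 pairs), so none matched within sampling noise. A count of 0 allows up to 0.111 to 0.185 CPM (3 counts), for counting error only. Scripts were tested on simulated data. Members and lists were chosen with earlier results of these data known. Named miRNAs were the members, the 3 nearest to each guide strand, the 3 most abundant of each list, and any miRNA with a member's seed; others were named after their values were seen; 1 further list is not reported here. Sequences and positions came from RefSeq (GRCm38.p6), which held 1376 of the 1626 names and all 6 members, and gene models from GENCODE M21.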

Additional observations from a re-analysis of the deposited data

How the results depend on the processing

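The positive folds of miR-148b-3p and miR-148b-5p kept their sign under every alternative run, at 0.41 to 0.74 and 0.54 to 0.76 with 1 library left out, and 0 of 6 members were called with any library left out. Calls appeared with no scaling factor (2 members, at 0.98 and 1.03) and with the miR-122-5p covariate (1 member, miR-148b-3p at 0.61). With no scaling factor the folds of miR-148a-3p (0.10), miR-148a-5p (0.22), miR-152-3p (0.16) and miR-152-5p (0.033) changed sign without a call. Leave-one-out folds were -0.41 to -0.18 for miR-148a-3p, -0.34 to 0.074 for miR-148a-5p, -0.43 to 0.17 for miR-152-3p and -0.68 to 0.17 for miR-152-5p, where the positive values came without WT library 3. The miRNAs called outside the deleted locus numbered 4, and 1 with RLE scaling, upper-quartile scaling or the locus removed before scaling, 58 with no scaling factor, 16 with the covariate, 12 by DESeq2 and 0 to 1 with 1 library left out; the cause was not tested. The log2 strand ratio differences ranged from -0.26 to -0.02 for miR-148a, -0.18 to 0.15 for miR-148b and -0.21 to 0.30 for miR-152 with 1 library left out, and that of miR-152 was 0.0050 with 5 counts added. The log2 difference of the ratio of miR-148a-3p to miR-148b-3p ranged from -1.11 to -0.60. The family's share in WT was 0.83% with the locus left out of the totals. No paired analysis was possible because the WT and KO libraries share no replicate numbers. With 29 to 123 reads, miR-152-5p had the widest counting error of the members.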

Other observations

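The heptamer of the guide seed also occurs outside the family, shifted by 1 base. Of 1679 RefSeq mouse mature miRNA names, 17 (1.01%) held CAGUGCA anywhere, 3 of them at base 2 (the family's guide strands) and 7 at base 1. The 3 of these 7 that passed the filter on low counts, singled out after their values were seen, were miR-130a-3p, miR-130b-3p and miR-301a-3p, members of the miR-130/301 family, whose own seeds therefore start 1 base later in the common stretch. They stood at a mean of 566.6, 1620 and 1126 CPM, and their log2 folds of KO over WT were -0.09, -0.11 and 0.64 (SE 0.17, 0.17 and 0.14). None passed edgeR's test (adjusted p = 0.916, 0.87 and 0.143). Only 1376 of the 1626 listed miRNAs had a RefSeq sequence of the same name, so the search did not cover all of them. miR-301b-3p, by name a relative of miR-301a-3p, was not among the 17. As the search did not cover every listed name, this does not show that it lacks the heptamer. It stood at 154.0, 137.3 and 120.1 CPM in WT and 152.1, 165.5 and 141.1 CPM in KO, with overlapping genotypes. miR-301a-3p was also among the nearest miRNAs to miR-148b-3p, in an order that takes in the difference between the genotypes. It stood at 929.9, 897.7 and 815.5 CPM in WT and 1327, 1523 and 1265 CPM in KO. The genotypes did not overlap, where 15.9% of all tested miRNAs had all KO values above all WT values. A match of letters is a description and shows no common target.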
